A study of Mus musculus with 14 samples.

Results

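Liver RNA of 6 mice aged 22 months, 3 Snell dwarf and 3 wild type, was measured on Affymetrix mouse arrays, with 1 array per mouse. These 6 arrays are all those of that age among the 14 of the study, and they were chosen by the age and genotype in their titles. The other 8 arrays hold 4 dwarf and 4 wild type mice of 6 months, which are used here to estimate the spread and to ask whether a difference at 22 months also stood at 6 months. Snell dwarf mice carry a mutation of Pit-1 (Pou1f1), and the labels describe them as long-lived. The dwarf livers came from animals 3, 4 and 8 and the wild type livers from animals 1, 2 and 24. The labels name no treatment of any group, state neither the sex nor the strain of the mice, and do not say whether both copies of the gene were mutant.

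Without Pit-1 the pituitary does not form its somatotrophs, lactotrophs and thyrotrophs, the sources of growth hormone, prolactin and thyrotropin, so these dwarf mice are known to lack all of them and to be short of thyroid hormone. Growth hormone acts on the hepatocyte through its receptor, the kinase JAK2 and the transcription factor STAT5, and drives the genes of IGF-1 and of its carrier protein. In rodents the time pattern of growth hormone in blood, pulsed in males and steadier in females, also sets which steroid and drug-metabolizing enzymes the male or the female liver makes.

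Values are MAS5 signals, which have no unit, and a probe set is the group of probes on the array that reads a transcript. Each signal under 54.9, the pooled 25th percentile, was raised to that floor before log2 was taken, and differences are dwarf minus wild type on that scale with the standard error (SE) of the limma fit. A probe set was called when its Benjamini-Hochberg adjusted p was under 0.05 over the 7227 tested. The median signal was 170.55 to 186.3 on the wild type arrays and 166.8 to 187.1 on the dwarf arrays, and 25.1% to 27.9% of probe sets were no higher than the floor on the 6 arrays. Beta-actin probe sets, which read RNA integrity as signal at the 3' end over that at the 5' end, gave 1.52 to 1.74 in wild type and 1.25 to 1.57 in dwarf mice. Log2 signals of array pairs correlated at 0.945 to 0.964 within a genotype and at 0.917 to 0.928 between genotypes. The 18S ribosomal control of wild type animal 2 stood apart, at 4852.8 against 339.8 to 1048.6 on the other arrays. Albumin and the other hepatocyte markers overlapped between the groups, with 0 of 8 called by limma (0 at an unadjusted p under 0.05) and a summed signal of 146580 to 193950 in wild type and 152360 to 176470 in dwarf livers. Xist, the RNA of the inactive X chromosome in females, lay between 6.7 and 17.5 on all 6 arrays. The Y-linked gene Eif2s3y, chosen after its values were seen, lay between 851.7 and 1055.7. Its probe set has a suffix that marks possible binding of related transcripts, so its signal need not come from the Y chromosome alone. Of 2 tested sex-linked genes 0 were called by limma (0 at an unadjusted p under 0.05). The number of arrays limits the precision of every value.

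Of the 7227 probe sets, 99 were higher in dwarf livers (1.37%) and 113 were lower (1.56%), together 212 (2.93%). At least 2-fold differences were seen among 61 of those higher and 84 of those lower, and at least 4-fold differences in 20 and 36. In all 212 the 3 dwarf values lay clear of the 3 wild type values, as they did in 1574 probe sets, called or not (21.8%). At an unadjusted p under 0.05, 444 were higher and 478 lower. With 1 probe set for each of 5473 genes, 76 genes were higher (1.39%) and 81 lower (1.48%), and the median difference of all genes was 0.00255 on the log2 scale. Every dwarf value lay above every wild type value in 10.1% of the genes and below in 11.7%, called or not. The count of higher probe sets fell to 49 without dwarf animal 3 and to 63 without dwarf animal 4, and it was 99 with all arrays. The probe sets of 40 genes with a call could be compared with another tested set of the same gene, and in 0 of them did calls point both ways. All tested sets were called in 11 of these genes, and in 7 the sets differed in sign.

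**Figure D1:**
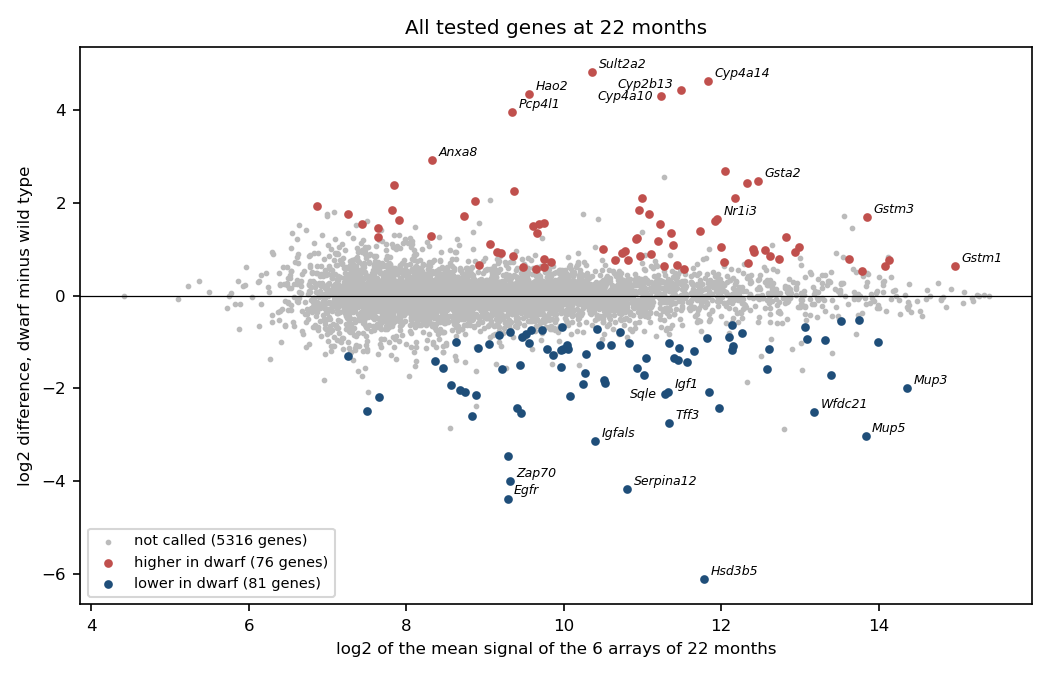
Each point is 1 of 5473 tested genes, with the log2 of its mean signal over the 6 arrays on the x axis and the log2 difference, dwarf minus wild type at 22 months, on the y axis. The 76 genes called higher are red and the 81 called lower are blue; Hsd3b5 at -6.10 and Sult2a2 at 4.81 lie farthest out.

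The growth hormone and IGF axis showed low levels of its liver-made end products in old dwarf mice. Igf1, the gene of the circulating growth factor IGF-1, had signals of 4268.7, 3985.8 and 4178.2 in wild type and of 821.8, 854.0 and 1338.3 in dwarf livers. Its highest dwarf value was thus far under its lowest wild type value, and the log2 difference was -2.08 ± 0.19 (SE, n = 3 and 3, adjusted p = 4.97e-06). A second Igf1 probe set, whose suffix marks possible binding of related transcripts, differed by -3.91. Igfals, the gene of the acid-labile subunit, a partner that keeps IGF-1 in blood, read 2441.1, 2382.6 and 2375.9 in wild type and 412.4, 130.1 and 376.6 in dwarf livers. The wild type values lay close together, and the difference was -3.14 ± 0.34 (adjusted p = 3.5e-05). Socs2, a feedback inhibitor that growth hormone induces, read 952.9, 506.1 and 889.7 against 148.5, 149.7 and 88.5, again with no overlap, and differed by -2.59 ± 0.34 (adjusted p = 0.000217).

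The receptors and binding proteins of the same axis differed less clearly. Ghr, the growth hormone receptor, was at 2603.2, 2686.9 and 2450.8 in wild type and 3573.3, 2989.2 and 3099.5 in dwarf livers, a difference of 0.32 ± 0.14 that was not called (adjusted p = 0.331). Igf2r, the receptor that clears IGF-2, was called higher by 0.61 ± 0.15 (adjusted p = 0.0407). Leaving out any of the 6 arrays ended the call of Igf2r, with adjusted p from 0.0602 to 0.188. Igfbp1, a binding protein that insulin suppresses, read 1682.5, 1236.7 and 106.5 in wild type and 4819.4, 5280.4 and 1772.8 in dwarf livers. Its groups did not overlap, but wild type animal 24 and dwarf animal 8 lay far under their groups and the difference of 2.56 ± 0.79 was not called (adjusted p = 0.111). Igfbp2 read 5985.3, 6231.5 and 554.8 in the dwarf livers, so that dwarf animal 8 was again apart, and 3380.1 to 5866.4 in wild type. Of 19 tested genes of the axis 1 was higher, 3 were lower and 15 were not called, with a median difference of -0.10. The shares over all genes were 1.39% higher and 1.48% lower. Of 12 tested insulin signalling genes 0 were called by limma and 1 had an unadjusted p under 0.05, and Irs1 and Irs2, the docking proteins of the insulin receptor, differed by 0.06 ± 0.64 and 0.15 ± 0.59.

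**Figure D2:**
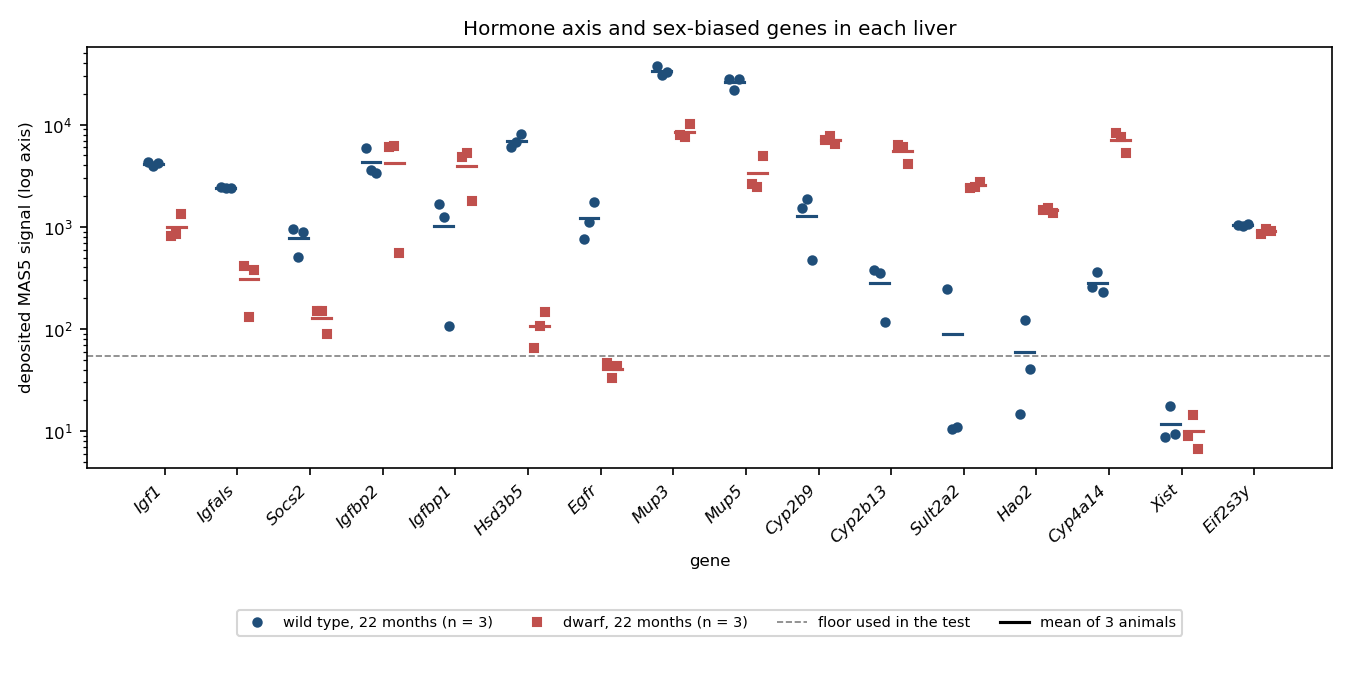
Deposited MAS5 signal (log axis) of 16 genes in each liver of 22 months, with wild type mice as circles, dwarf mice as squares and bars at the mean of 3 animals. The dashed line is the floor of 54.9. Igf1 to Socs2 and Hsd3b5 to Mup5 are lower in all 3 dwarf livers, Cyp2b9 to Cyp4a14 are higher in all 3, and Igfbp2 overlaps.

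Genes that the male liver makes in larger amounts were mostly lower in the dwarf livers. Of 12 tested, 7 were lower, 1 was higher and 4 were not called, and the median difference was -1.85. The shares over all genes were 1.48% lower and 1.39% higher. Hsd3b5, a steroid dehydrogenase of the male liver, read 6099.3, 6779.1 and 8028.7 in wild type and 65.5, 107.7 and 146.1 in dwarf livers. This was the largest difference of any tested gene, at -6.10 ± 0.39 (adjusted p = 8.24e-08) or 68.5-fold. Egfr, the epidermal growth factor receptor, read 753.3, 1104.3 and 1768.6 in wild type livers and stood under the floor in each dwarf liver (46.7, 32.9 and 43.4). It was therefore at least 20.7-fold lower, and its 3 tested probe sets were all called, at -4.37 to -2.58. The major urinary proteins, pheromone carriers secreted by the liver, were lower too: Mup3 read 30593 to 37464 in wild type and 7596.2 to 10086 in dwarf livers (-1.99 ± 0.19). Mup5 read 22013 to 28003 against 2435.7 to 4991.3 (-3.02 ± 0.25). Both probe sets carry a suffix for possible binding of related transcripts, and this family has many near-identical copies, so the single members are uncertain.

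The other called male-biased genes, with 1 exception, were lower too. Serpina12, the gene of the serpin vaspin, read 4014.1, 2837.5 and 3209.0 in wild type and 112.0, 122.3 and 451.8 in dwarf livers, 18.1-fold lower (-4.18 ± 0.38). Cyp2f2, a cytochrome P450 that oxidizes small aromatic compounds, read 5003.3 to 6623.5 against 1275.2 to 1547.1 (-2.08 ± 0.27). Cyp7b1, which hydroxylates oxysterols and steroids, read 2650.2 to 3904.7 against 567.1 to 1399.0 (-1.71 ± 0.28). Gstp1, a glutathione transferase with higher levels in males, overlapped between the groups at 19647 to 23792 and 19518 to 21700. Hsd11b1, the enzyme that regenerates corticosterone and a gene chosen here after its values were seen, was the 1 member called higher (0.53), and with any 1 of the 6 arrays left out 0 members of the list were called higher.

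Genes with higher levels in the female liver showed the opposite picture: 9 of 11 tested were higher in dwarf livers, 0 were lower, and the median difference was 2.69. Among all genes 1.39% were called higher and 1.48% lower. Sult2a2, a sulfotransferase for steroids and bile acids, read 2427.7, 2458.6 and 2745.6 in dwarf livers and 246.5, 10.4 and 11 in wild type. Wild type animals 2 and 24 were under the floor, and the difference was 4.81 ± 0.47 (adjusted p = 9.8e-06). Hao2, a peroxisomal hydroxyacid oxidase, read 1458.8, 1532.0 and 1377.9 in dwarf and 14.7, 123.5 and 40.8 in wild type livers (4.34 ± 0.44). For Hao2 wild type animals 1 and 24 were under the floor. The dwarf values of both genes lay close together, while most wild type values were under the floor, so the size of both differences depends on that floor. Fmo1, a flavin monooxygenase, was 1.65-fold higher (0.73 ± 0.18, adjusted p = 0.0332). That call was lost without wild type animal 2 or 24 or any of the 3 dwarf animals, with adjusted p of 0.102 to 0.164. Without each array in turn, 8 or 9 of the 11 genes were called higher.

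The nuclear receptor CAR (Nr1i3), a sensor of foreign compounds that turns on drug-metabolizing genes, was itself higher in dwarf livers. Its signals were 6661.5, 6333.6 and 4946.5 against 1433.9, 2215.8 and 2095.3 in wild type, and the difference was 1.66 ± 0.26 (adjusted p = 0.00118). Of its 3 tested probe sets 2 were called higher. PXR (Nr1i2), a related sensor, read 470.3 to 533.1 in dwarf and 198.2 to 340.0 in wild type livers without being called (0.94 ± 0.27, adjusted p = 0.0866). Of 24 tested genes of both receptors and their targets, 11 were higher and 1 was lower, and 17 had every dwarf value above every wild type value. Over all genes 1.39% were called higher and 10.1% had every dwarf value above. Here 11 and 17 are counts of related genes. This list shares the Cyp2b genes and Cyp2c39 with the female-biased list, so the lists are not separate evidence.

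Within the Cyp2 family, whose enzymes oxidize steroids, drugs and fatty acids, 5 of 14 tested members were higher and 2 lower. The shares over all genes were 1.39% higher and 1.48% lower. The tested Cyp2b members, of which Cyp2b10 is a known target of CAR, were all higher. Cyp2b13 read 6274.0, 6060.5 and 4142.7 in dwarf and 379.2, 353.9 and 117.6 in wild type livers (4.43 ± 0.41). Cyp2b9 read 6522.3 to 7826.1 against 472.7 to 1864.2 (2.69 ± 0.51), and Cyp2b10 read 6877.0 to 10565 against 1004.1 to 3397.4 (2.43 ± 0.41). Wild type values of all 3 genes varied several-fold between animals and still stayed under the lowest dwarf value. Cyp2c39, which metabolizes retinoic acid, read 6532.9 to 8398.8 against 1507.1 to 1904.0 (2.10 ± 0.19). Cyp2c38, read by a set that may bind related transcripts, differed by 1.27 ± 0.19. Cyp2c70, which makes the muricholic bile acids of mice, was lower by -1.15 ± 0.26 (adjusted p = 0.0221), a call that ended without wild type animal 2 or 24 or dwarf animal 3 or 4 (adjusted p 0.061 to 0.117). Without those arrays 1 member of the family, Cyp2f2, was called lower. Cyp2e1, Cyp2d10, Cyp2d9 and Cyp2j5 had differences between -0.13 and 0.07 and overlapping values.

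Among the other families of detoxification the Cyp3a enzymes, the main drug oxidases, were moderately higher. Cyp3a11 read 20966 to 23432 in dwarf and 11650 to 14954 in wild type livers (0.77 ± 0.14), and Cyp3a25 read 9434.8 to 12126 against 4373.5 to 5805.0 (1.05 ± 0.16). Cyp3a16 was called higher near the threshold (1.55 ± 0.40, adjusted p = 0.0472), and without any 1 of the 6 arrays it was not (0.0578 to 0.198). Cyp3a13 overlapped between genotypes. Fmo5, a flavin monooxygenase that oxidizes ketones, read 5951.8 to 8747.8 against 3259.4 to 4257.3 (1.00 ± 0.18), and a second tested set of Fmo5 differed by 0.41 and was not called. Ugt2b5, a glucuronosyltransferase, was lower by -0.54 ± 0.13 (adjusted p = 0.0358), and its call too was lost without any 1 array (adjusted p 0.0609 to 0.184).

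Glutathione transferases, which couple reactive compounds to glutathione, were higher for 7 of 17 tested members and lower for 0. Among all genes 1.39% were called higher and 1.48% lower. Gsta2 read 10864, 9698.3 and 7937.5 in dwarf and 2943.0, 1669.0 and 997.1 in wild type livers (2.47 ± 0.27, adjusted p = 3.9e-05). Gstm3 read 19082 to 26268 against 5600.0 to 7874.0 (1.70 ± 0.16), and the microsomal Mgst3 read 2787.7 to 3318.3 against 643.5 to 1044.8 (1.84 ± 0.23). Groups lay well apart in these 3 genes. Gsta4, which clears products of lipid peroxidation, read 1217.5, 1153.6 and 768.4 against 562.4, 160.2 and 112.4, where wild type animal 1 was well above the others (2.25 ± 0.41). Gsta3 (0.98 ± 0.20), Gstt1 (0.93 ± 0.21) and Gstm1 (0.64 ± 0.14) were higher by smaller amounts. Without dwarf animal 3 the calls in this family fell from 7 to 4, since Gsta3, Gstt1 and Gstm1 were lost (adjusted p of Gsta3 0.0672). In a fit of the 6 arrays alone 3 members were called, and 4 with no filter on low signals. Without wild type animal 2 or 24 Gstm1 and Gstt1 were lost, and without dwarf animal 4 Gstt1 (adjusted p at most 0.0931 for Gstm1 and 0.129 for Gstt1). The members not called ran from -0.51 ± 0.17 for Gstm5 to 0.65 ± 0.18 for Gsto1. The sets of Gstm1, Gstm3 and Gstm5 may also bind related transcripts.

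Some genes of fatty acid oxidation were higher in dwarf livers, while most tested ones were not called. PPAR-alpha is the nuclear receptor that turns on fat oxidation in fasting. Of 28 tested genes of its target list 8 were higher, 0 lower and 20 not called, with a median of 0.58. In the list of peroxisomal oxidation 3 of 19 tested were higher, 0 lower and 16 not called, with a median of 0.29. The share called higher over all genes was 1.39%. Cyp4a14, a fatty acid omega-hydroxylase, read 8220.7, 7569.7 and 5295.0 in dwarf and 258.4, 364.3 and 230.7 in wild type livers, a difference of 4.63 ± 0.26 (adjusted p = 2.68e-08). Its close relative Cyp4a10, read by a set that may bind related transcripts, stood at 4950.0, 4796.1 and 3851.5 against 358.2, 481.4 and 68.7 (4.30 ± 0.48). Both also belong to the female-biased list. Acot1, which frees fatty acids from coenzyme A, read 753.8, 556.8 and 641.1 against 162.6, 254.9 and 186.4 (1.71 ± 0.23). Ehhadh, an enzyme of peroxisomal beta-oxidation, read 1102.2, 1282.6 and 1264.5 against 494.7, 503.3 and 292.6 (1.54 ± 0.23). Every dwarf liver was above every wild type liver for these genes. Aldh3a2, which oxidizes fatty aldehydes, read 3192.2 to 3940.2 against 869.9 to 1507.4 (1.55 ± 0.24).

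Steps of mitochondrial beta-oxidation differed by less. Acadm, the medium-chain acyl-CoA dehydrogenase, read 17027, 15693 and 15292 in dwarf and 8178.8, 9031.4 and 10643 in wild type livers, which was 1.73-fold (0.79 ± 0.13, adjusted p = 0.00179). Hadh and Eci1, which act further along the same spiral, were higher by 0.71 ± 0.14 and 0.91 ± 0.19. Of 14 tested genes of the pathway 3 were higher, 0 lower and 11 not called, and 12 had a positive difference. Among all genes 1.39% were called higher. Only Acadm was called without dwarf animal 3, where Hadh had an adjusted p of 0.0622. Eci1 was also lost without dwarf animal 4 or wild type animal 1 or 24 (0.0563 to 0.0819 over the 4 arrays). Crat, the carnitine acetyltransferase, read 671.4 to 763.3 against 280.8, 331.9 and 57.2, with wild type animal 24 far under the other wild type livers (2.03 ± 0.50). Its call was lost without that animal or any dwarf animal (adjusted p 0.0737 to 0.12). Ppara itself overlapped, at 2298.5 to 3554.6 in dwarf and 2422.6 to 3726.0 in wild type livers (-0.09 ± 0.19). Pparg, the receptor of fat storage, was higher (1.76 ± 0.42, adjusted p = 0.0276), and without any 1 of the arrays it was not called (0.0534 to 0.119).

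**Figure D3:**
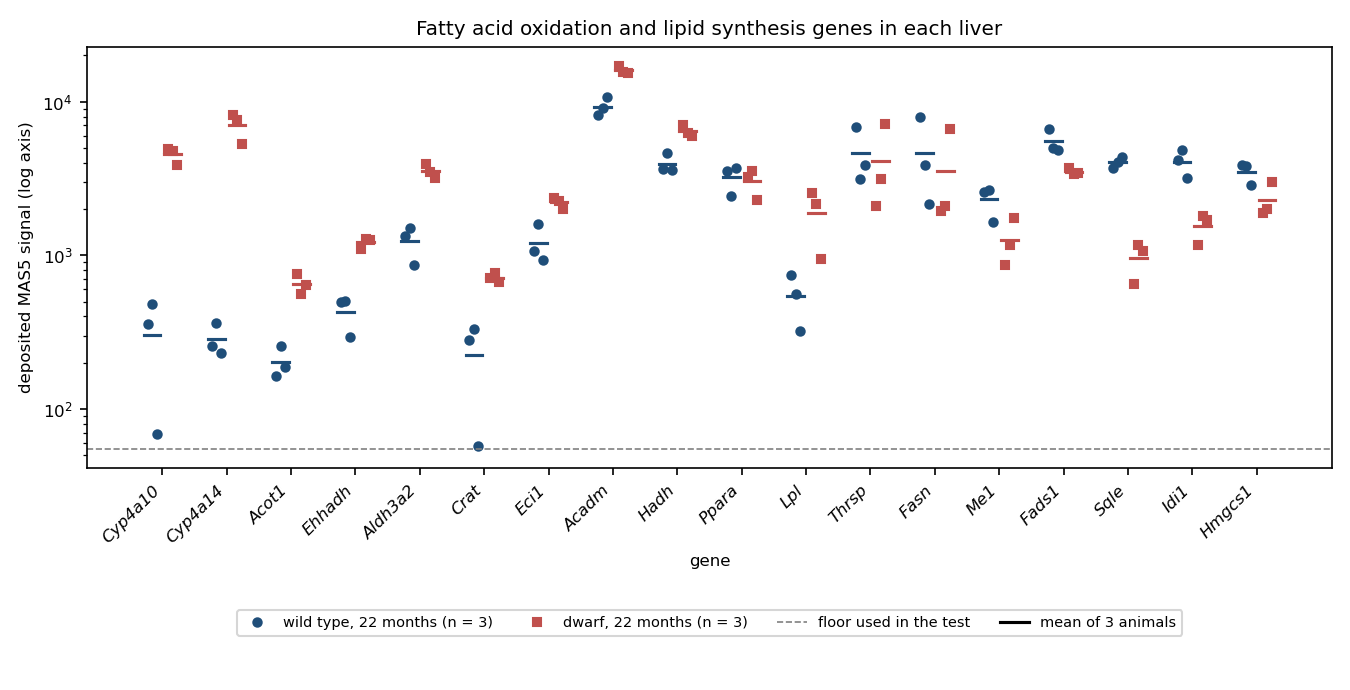
Deposited MAS5 signal (log axis) of 18 genes of fat oxidation and lipid synthesis in each liver of 22 months, with wild type mice as circles, dwarf mice as squares and bars at the mean of 3 animals. Cyp4a10 to Hadh are higher in all 3 dwarf livers, Ppara, Thrsp, Fasn, Me1 and Hmgcs1 overlap, and Fads1, Sqle and Idi1 are lower in all 3 dwarf livers.

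Of 17 tested genes of cholesterol synthesis 2 were called lower and 15 were not called. All 17 differences were negative, with a median of -0.56, and 6 genes had values free of overlap while the other 11 overlapped. Over all genes 1.48% were called lower and 11.7% had every dwarf value below. Sqle, the squalene epoxidase that opens the sterol branch, read 3702.6, 4064.3 and 4333.3 in wild type and 649.1, 1157.9 and 1061.0 in dwarf livers, 4.34-fold lower (-2.12 ± 0.30, adjusted p = 0.000429). Idi1, which makes the isoprenoid building block, read 3172.9 to 4810.8 against 1172.9 to 1790.8 (-1.39 ± 0.33, adjusted p = 0.028). Idi1 was not called without wild type animal 1 or 2 or any dwarf animal (adjusted p 0.054 to 0.159), which left 1 called gene. In a fit of the 6 arrays alone and with array weights 4 genes of the list were called lower. Cyp51 (-1.30 ± 0.38), Mvd (-1.22 ± 0.48) and Fdps (-1.02 ± 0.34) had no overlap and were not called (adjusted p 0.0889, 0.261 and 0.151). Fdft1, Nsdhl and Mvk, at -0.10, -0.04 and -0.18, overlapped.

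Of 17 tested genes of fatty acid synthesis 1 was called lower and 16 were not called, 4 had an unadjusted p under 0.05, and 14 had a negative difference. Thrsp (Spot14), which thyroid hormone induces and which promotes lipogenesis, read 6832.3, 3146.3 and 3867.2 in wild type and 2090.2, 3130.7 and 7177.6 in dwarf livers (-0.27 ± 0.46). Fasn, the fatty acid synthase, read 7955.2, 3841.3 and 2150.2 against 1938.6, 2086.9 and 6591.5 (-0.43 ± 0.48). Dwarf animal 8 was the highest dwarf and wild type animal 1 the highest wild type in both genes, and the groups overlapped. Me1, the malic enzyme that supplies reducing power, differed by -0.90 ± 0.37 (adjusted p = 0.298). The called gene was the desaturase Fads1 (-0.64 ± 0.15, adjusted p = 0.0254), and it was lost without wild type animal 1 or any dwarf animal (0.0672 to 0.12). Of 17 tested thyroid hormone responsive genes 0 were called by limma and 4 had an unadjusted p under 0.05, and 2 had every dwarf value under every wild type value, a share close to that of all genes. With array weights 2 of them were called lower. Dio1, which activates thyroid hormone, read 120.6 to 155.2 in wild type and stood under the floor in all 3 dwarf livers, at least 2.59-fold lower with an adjusted p of 0.0527.

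Lipid transport genes held a few large decreases. Apoa4, an apolipoprotein of the intestine and the mouse liver, read 11516, 6285.1 and 2738.8 in wild type and 749.2, 821.0 and 2103.2 in dwarf livers (-2.42 ± 0.43, adjusted p = 0.00289). The scatter among wild type livers was large and the groups still did not overlap. Pltp, the phospholipid transfer protein, read 1029.0 to 3754.8 against 514.0 to 645.9 (-1.89 ± 0.37). Fabp5, a fatty acid binding protein, was lower by -2.42 ± 0.57 (adjusted p = 0.0266), a call lost without any array but that of dwarf animal 8 (0.0605 to 0.137). Lipoprotein lipase, Lpl, which is low in the normal adult liver, read 2547.9, 2141.9 and 944.1 in dwarf and 748.4, 560.9 and 319.2 in wild type livers (1.75 ± 0.59, adjusted p = 0.151), and 1 of its 2 tested probe sets was called higher. Of 28 tested genes of this list 3 were lower, 0 higher and 25 not called, while 1.48% of all genes were called lower. In a fit of the 6 arrays alone 1 was lower and 1 higher, with no filter 1 was lower and 0 higher, and with array weights 3 were lower and 2 higher.

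Central metabolism held single calls. Idh2, the mitochondrial isocitrate dehydrogenase that makes NADPH, read 3579.1, 3919.1 and 2570.7 in dwarf and 985.9, 940.8 and 1014.6 in wild type livers (1.75 ± 0.22, adjusted p = 0.000141), and it was the 1 called gene of 22 tested in the tricarboxylic acid cycle list (4 with array weights). In the list of amino acid breakdown and the methionine cycle 2 of 31 were higher, against 4 with quantile normalization and 5 with array weights. Sardh, which breaks down sarcosine, read 2947.3 to 3761.2 against 1320.1 to 1572.3 (1.17 ± 0.19). Gnmt, which uses up methyl groups by making sarcosine, read 22054, 21261 and 20037 against 14317, 13261 and 13297 (0.63 ± 0.15, adjusted p = 0.0313). Gnmt was not called without any 1 of the 6 arrays (0.0609 to 0.138), although its groups did not overlap. Among 19 tested genes of glucose metabolism Ugp2, which makes UDP-glucose for glycogen, was higher by 1.22 ± 0.26, and Pgam1, a glycolytic mutase, by 0.65 ± 0.16. In a fit of the 6 arrays alone and with no filter 0 genes of this list were called higher. Ugp2 was lost without wild type animal 2 or 24 or dwarf animal 4 (adjusted p 0.0624 to 0.0817), and Pgam1 without any array but that of dwarf animal 4 (0.0905 to 0.176). Pck1, the rate-limiting enzyme of glucose production, overlapped (-0.04 ± 0.25).

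The lists of complement, acute phase and coagulation genes, proteins that the liver secretes, held 6, 2 and 1 genes called lower. Of 20 tested complement genes 6 were lower, 0 higher and 14 not called, the median was -0.55, and 14 of the 20 had values free of overlap, all with dwarf below wild type. Over all genes 1.48% were called lower and 11.7% had every dwarf value below. C9, the pore-forming component, read 8279.7, 8715.7 and 10280 in wild type and 3638.9, 2137.3 and 3626.1 in dwarf livers (-1.57 ± 0.21, adjusted p = 0.000217). Hc, the gene of component C5, read 5290.3, 5642.0 and 7743.1 against 3024.0, 3044.2 and 2578.9 (-1.09 ± 0.18). C1ra, a protease of the first component, and Serping1, the inhibitor of that protease, were lower by -1.01 ± 0.15 and -0.96 ± 0.17, so activating and inhibiting members were both among the called genes. The C1ra set may bind related transcripts, and a second tested set of C1ra differed by -0.30 and was not called. C4bp, another inhibitor, was lower by -0.68 ± 0.16 and lost its call without any array but that of wild type animal 1 (adjusted p 0.0619 to 0.158). Apcs, serum amyloid P, an acute phase protein of the mouse, read 13177, 15792 and 20751 against 5381.9, 4822.1 and 4715.4 (-1.71 ± 0.27, adjusted p = 0.00118). Itih4, an inter-alpha-inhibitor chain, was lower by -0.93 ± 0.20. It was not called without wild type animal 2 or 24 or dwarf animal 8 (0.0658 to 0.0825), with differences of -0.90 to -0.80. These made 2 of 29 tested acute phase genes, against 4 in a fit of the 6 arrays alone and 5 with array weights. F12, coagulation factor XII, was the 1 called of 23 coagulation genes (-0.91 ± 0.19), and its adjusted p was 0.0519 without wild type animal 1; array weights gave 3 calls in this list.

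Among immune response genes the calls were few. Of 15 tested interferon-stimulated genes 3 were lower, and 13 had every dwarf value under every wild type value, with a median of -0.99. With no filter on low signals 1 was called. Over all genes 1.48% were called lower and 11.7% had every dwarf value under every wild type value. Ifi47, an interferon-gamma-induced GTPase, read 671.4, 860.0 and 538.5 in wild type and 109.7, 187.7 and 205.0 in dwarf livers (-2.07 ± 0.44, adjusted p = 0.0132). Gbp7, a guanylate-binding protein, read 730.7, 371.7 and 481.0 against 245.4, 188.7 and 110.1 (-1.56 ± 0.36). Ly6e read 19703 to 23421 against 9220.2 to 11935 (-0.99 ± 0.17), and a second Ly6e set differed by 0.29 without a call. Ifi47 was lost without wild type animal 2 or dwarf animal 3 (adjusted p 0.074 and 0.0874), and Gbp7 without wild type animal 1 or 24 or dwarf animal 4 or 8 (0.0659 to 0.123). In the list of MHC class I and the immunoproteasome 12 of 12 genes had a negative difference, 10 were free of overlap and 1 was called, Psmb10, a catalytic subunit (-1.16 ± 0.27). Without any of the 3 wild type animals or without dwarf animal 8 Psmb10 was not called (0.0577 to 0.115). In this list 4 genes were called lower in a fit of the 6 arrays alone and with array weights, 3 with the higher floor, with a pseudocount or with the stricter filter, and 0 with no filter. The 7 tested MHC class II and antigen presentation genes all had negative differences, and 0 were called by limma with 3 at an unadjusted p under 0.05.

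Of 8 tested markers of Kupffer cells, the resident macrophages of the liver, 1 was called lower and 7 were not called. Differences were negative in 7 and free of overlap in 4, and the summed signal of the 10 on the array was 5421.3 to 7762.5 in wild type and 3721.9 to 4394.6 in dwarf livers. Over all genes 1.48% were called lower and 11.7% had every dwarf value below. Clec4f, a receptor found on mouse Kupffer cells, was called lower, at 660.6, 694.8 and 571.6 against 1571.6, 1925.9 and 964.1 (-1.16 ± 0.26, adjusted p = 0.0196). It was not called without wild type animal 1 or 2 or dwarf animal 3 or 8 (0.0671 to 0.105). In whole liver, fewer cells of a type and less RNA per cell cannot be told apart. The part of these markers in the lower complement, interferon and MHC values was not tested. Of the markers of B cells 0 of 6 were called by limma (1 at an unadjusted p under 0.05), of neutrophils 0 of 3 (0), of endothelial cells 0 of 7 (2) and of stellate cells 0 of 6 (1).

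**Figure D4:**
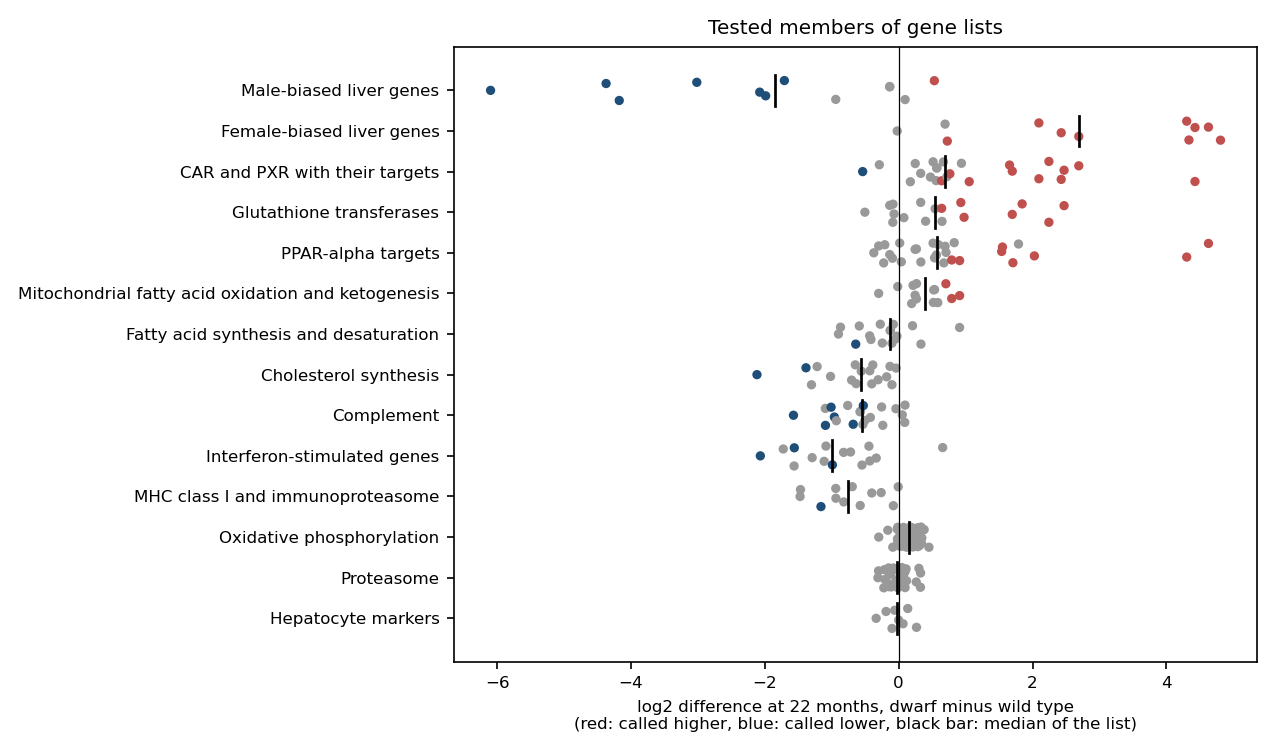
Each point is the log2 difference at 22 months, dwarf minus wild type, of a tested member of 14 gene lists; red points were called higher, blue points lower, and black bars are the medians. Male-biased genes (median -1.85) and female-biased genes (median 2.69) lie on opposite sides, the differences of all 17 cholesterol synthesis genes are negative with 2 called, and the medians of oxidative phosphorylation, proteasome and hepatocyte marker genes are 0.15, -0.02 and -0.03.

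Promoters of the called genes were searched for short motifs, since STAT5 and nuclear receptors bind near such genes. RefSeq promoter windows (GRCm38.p6) of 250 bases before and 50 after the start were found for 64 of the 76 higher and 63 of the 81 lower genes. A gene was counted once if any of its windows held the motif. The STAT5-type motif TTCNNNGAA, which reads the same on both strands, was in 8 lower genes (12.7%) and in 6 higher genes (9.38%), against 8.34% of the tested genes and 9.55% of all genes with a window. A direct repeat of AGGTCA with 1 base between the copies, the form that PPAR-alpha binds, was searched on both strands with at most 1 mismatch and was in 1 higher gene (1.56%) and 0 lower genes, against 0.475% of the tested and 0.644% of all genes. Other motifs were searched on both strands too. TGACNNNGC, the core bound by NRF2, was in 9.38% of higher and 14.3% of lower genes, against 16.8% of the tested genes. ACGTG, a core shared by several factors, was in 26.6% of higher and 15.9% of lower genes, against 29.8% of the tested genes. A direct repeat of AGGTCA with 4 bases between was in 0 of the higher, lower or tested genes. These shares were not tested, and a match is no evidence of binding. The windows below belong to genes named for their values; capitals mark the motif, and each is written 5' to 3' on the strand of its gene. Igfals (chr17:24877981-24878280, plus strand) has the motif at -58 from the start; another of its 3 windows also holds it, at -236 from that window's own start. Apcs (chr1:172895005-172895304, minus strand) has it at -244, and Gbp7 (chr3:142530086-142530385, plus strand) at -106 and -87. Cyp3a25 (chr5:146009569-146009868, minus strand) holds the repeat with a mismatch at -183.
Igfals: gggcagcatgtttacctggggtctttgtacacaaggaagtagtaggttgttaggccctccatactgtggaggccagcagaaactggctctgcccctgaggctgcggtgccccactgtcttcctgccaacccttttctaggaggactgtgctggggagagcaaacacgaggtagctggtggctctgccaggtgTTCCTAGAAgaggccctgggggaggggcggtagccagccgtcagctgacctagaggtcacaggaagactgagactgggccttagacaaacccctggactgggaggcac
Apcs: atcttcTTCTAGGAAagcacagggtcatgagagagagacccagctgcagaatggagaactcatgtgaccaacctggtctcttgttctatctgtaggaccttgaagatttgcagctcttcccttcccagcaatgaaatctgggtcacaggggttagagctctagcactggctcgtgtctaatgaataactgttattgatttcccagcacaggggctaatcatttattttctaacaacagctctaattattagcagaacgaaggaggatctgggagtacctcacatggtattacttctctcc
Gbp7: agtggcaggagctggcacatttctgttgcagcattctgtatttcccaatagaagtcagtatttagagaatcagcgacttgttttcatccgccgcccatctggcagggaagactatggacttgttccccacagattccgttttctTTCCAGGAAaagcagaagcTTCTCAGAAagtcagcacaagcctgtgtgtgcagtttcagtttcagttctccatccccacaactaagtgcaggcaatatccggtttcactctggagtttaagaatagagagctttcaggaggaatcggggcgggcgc
Cyp3a25: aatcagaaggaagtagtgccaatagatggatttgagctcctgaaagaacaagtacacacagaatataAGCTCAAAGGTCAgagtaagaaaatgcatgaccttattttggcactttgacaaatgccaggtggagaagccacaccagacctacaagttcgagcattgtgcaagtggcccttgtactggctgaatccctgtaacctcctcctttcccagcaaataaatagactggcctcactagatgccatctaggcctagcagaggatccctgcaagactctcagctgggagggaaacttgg

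Most probe sets called lower in old dwarf mice were also called lower at 6 months, and fewer of the higher ones were also called higher. Of the 113 lower probe sets 78 were called lower at 6 months too, 1 was called higher and 34 were not called. Of the 99 higher ones 44 were called higher at 6 months, 3 lower and 52 not. Counted by genes, 54 of 81 lower ones and 32 of 76 higher ones were called in the same direction at 6 months. The share of all probe sets called at 6 months is not given here, so these counts have no background beside them. A call was easier to reach at that age. By limma Cyp2j5 was called at 6 months with an unadjusted p of 0.00587, while Igfbp1 was not called at 22 months with 0.00533. The ages were then compared directly, by the genotype difference at 22 months minus that at 6 months, and 158 probe sets were called (2.19%), of which 111 were positive and 47 negative. These counts rest on few arrays: 85 were called without wild type animal 1, 57 without wild type animal 24, 48 without dwarf animal 3, 88 without dwarf animal 4 and 69 without dwarf animal 8. The beta-actin ratio was 2.29 to 2.69 in dwarf and 1.16 to 2.38 in wild type mice of 6 months, against 1.25 to 1.74 in the 6 old mice, and its part in the age difference was not tested.

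Several fat-oxidation genes were higher in dwarf livers at 22 months and not at 6 months, and the difference between ages was called for them. Ehhadh differed by 1.54 at 22 and by -0.42 at 6 months (age difference 1.96, adjusted p = 0.00413), with wild type means of 430.2 ± 119 (SD, n = 3) and 694.3 ± 103 (n = 4) and dwarf means of 1216 ± 99.3 and 523.2 ± 119. Acot1 differed by 1.71 and -0.51 (age difference 2.22, adjusted p = 0.00304), with wild type means of 201.3 ± 47.9 and 441.9 ± 107 and dwarf means of 650.6 ± 98.8 and 304.5 ± 28.4. For both genes the older wild type group had the lower mean and the older dwarf group the higher mean. Cyp4a14 was higher at both ages, by 4.63 and 2.80. Of 28 tested PPAR-alpha target genes 8 were called for the difference between ages. Sardh (1.17 and -0.22), Cyp3a25 (1.05 and -0.07), Fmo5 (1.00 and -0.14) and Gsta2 (2.47 and 0.89) were also called for it. Without dwarf animal 3 the age difference of Cyp4a14, Cyp3a25, Fmo5 and Gsta2 lost its call, and that of Fmo5 and Gsta2 also without wild type animal 24 or dwarf animal 8 and that of Gsta2 without wild type animal 2 or dwarf animal 4 (adjusted p at most 0.0667 for Cyp4a14, 0.053 for Cyp3a25, 0.0706 for Fmo5 and 0.131 for Gsta2 over all alternatives).

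Thrsp, Me1 and Igfals had smaller differences at 22 than at 6 months. The difference between ages was called for 3 of 19 tested genes of the hormone axis and 3 of 17 of fatty acid synthesis. Thrsp differed by -0.27 at 22 and by -4.70 at 6 months (age difference 4.42, adjusted p = 0.00304), with a dwarf mean of 4133 ± 2688 (SD, n = 3) at 22 and 389.8 ± 204 (n = 4) at 6 months. Me1 differed by -0.90 and -3.48 (age difference 2.58, adjusted p = 0.0172), a call lost without wild type animal 24 (adjusted p at most 0.0768 over all alternatives). Igfals was lower at both ages, by -3.14 and -5.19, and its age difference of 2.05 (adjusted p = 0.0294) was lost without wild type animal 1 or 24 or dwarf animal 3 or 8 (adjusted p at most 0.121 over all alternatives). Igf1 differed by -2.08 and -1.80, an age difference that was not called (-0.28, adjusted p = 0.659). Socs2 differed by -2.59 and -0.89, with the larger difference in the old mice, and its age difference of -1.70 was not called (adjusted p = 0.0671). Wfdc21, which encodes a small whey acidic protein, was lower by -2.51 at 22 and by -7.18 at 6 months, the largest age difference of any tested gene (4.67, adjusted p = 1.39e-05). Its signals were 13112, 15195 and 19086 in old wild type and 3416.1, 1958.7 and 3084.5 in old dwarf livers, while the dwarf mean at 6 months was 118.2 ± 52.7. Foxa3, a hepatocyte transcription factor, was lower at 22 months (-0.74) and higher at 6 months (0.71), and its call at 22 months was lost without any array but that of dwarf animal 4 (adjusted p 0.0761 to 0.123).

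**Figure D5:**
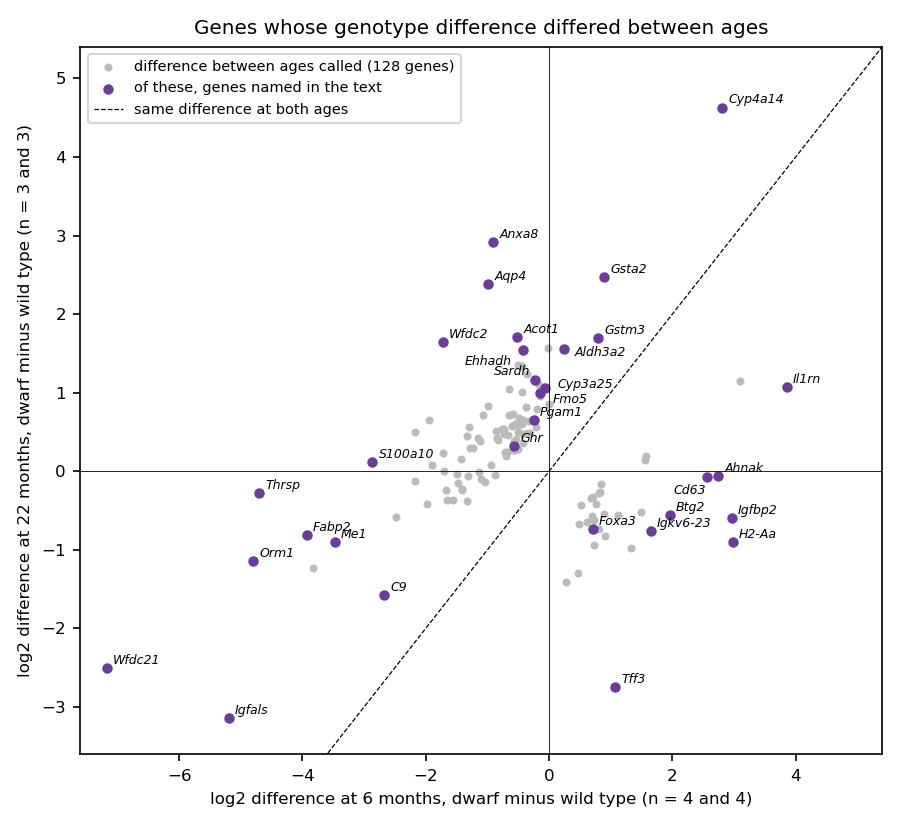
Each point is 1 of the 128 genes whose genotype difference differed between ages; the log2 difference, dwarf minus wild type, at 6 months is on the x axis and that at 22 months on the y axis, and named genes are purple. The dashed line marks equal differences. Ehhadh, Acot1, Anxa8 and Aqp4 lie above 0 at 22 months and under 0 at 6 months, and Thrsp, Orm1 and Wfdc21 lie far to the left.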

How the data were processed

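Liver total RNA of 14 mice was labelled with biotin and hybridized to Affymetrix mouse arrays of 12488 probe sets, per the labels' protocols. The deposited values are signal intensities on a linear scale, made by the authors with MAS5 per the submitters' processing notes; its version and scaling target are not given in the sources used here, and the 2% trimmed mean was 500.357 to 500.437 on each array. In the platform's annotation 10855 probe sets carried a single symbol, 396 carried several, and 1237 had none listed.

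Control probe sets (66) were left out, signals were floored at the pooled 25th percentile of 54.9, and the 7227 probe sets above 184.8, the pooled median, on at least 3 arrays were tested. Using limma 3.58.1 under R 4.3.3, log2 signals from all 14 arrays were modelled by 4 group means, with variances moderated by eBayes along the trend with intensity. Dwarf was set against wild type within each age, and the 2 differences against each other, each adjusted by Benjamini-Hochberg over all 7227, with a threshold of 0.05. The tested probe set with the highest mean log2 signal stood for a gene. By their suffixes the sets of Cyp2d10, Cyp7b1, Ghr, Igfbp1, Igkv6-23, Ly6e, Pparg and Ugt2b5 may also bind related transcripts. Those of Cyp3a16, Egfr, Mvk and Nr1i3 carry other suffixes that mark a departure from the usual design. A fold against a group wholly at the floor is a lower bound. The scripts were tested on simulated data. The labels number the livers of a group and say no more of how they were collected, so p-values measure the spread between these samples.

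Named genes were the 15 largest called differences in each direction without overlap, the 8 largest in each direction for the difference between ages, up to 5 called members of each list, a set of endocrine and metabolic genes, and families described whole. The members, lists and named genes were chosen with earlier results of these data known. Alternatives were other scalings, floors, filters and variance models, the 6 arrays alone and leaving out each array.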

Additional observations from a re-analysis of the deposited data

Results flagged for a closer look

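For 31 named genes the log2 genotype difference (dwarf minus wild type) at 22 months differed from that at 6 months by the interaction term of the limma fit over all probe sets, at an adjusted p under 0.05. The values below are the difference at 22 months minus that at 6 months; no explanation is weighed.

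The largest positive values were those of Wfdc21 (4.67), called lower in dwarf livers at both ages, and Thrsp (4.42), called lower in young ones and not in old ones. Anxa8 (3.82), an annexin, and Aqp4 (3.37), a water channel, were called higher in old dwarf livers and not in young ones. Orm1 (3.65), an acute phase protein, Wfdc2 (3.37), Fabp2 (3.11), an intestinal-type fatty acid binding protein, S100a10 (2.99), Me1 (2.58) and Ghr (0.88) were called lower in young dwarf livers and not called in old ones. Igfals (2.05) and C9 (1.10), a complement component, were called lower at both ages, with smaller differences in the old mice. The enzymes Acot1 (2.22), Ehhadh (1.96), Sardh (1.39), Aldh3a2 (1.31), Fmo5 (1.14), Cyp3a25 (1.12) and Pgam1 (0.90) were called higher in old dwarf livers and not called in young ones. Cyp4a14 (1.83), Gsta2 (1.58) and Gstm3 (0.90) were called higher at both ages, with larger differences in the old mice.

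Among negative values, Tff3 (-3.82), a trefoil peptide, was called lower in old dwarf livers and not called in young ones. H2-Aa (-3.88), an MHC class II chain, Igfbp2 (-3.55), Ahnak (-2.80), Il1rn (-2.78), an interleukin-1 antagonist, Cd63 (-2.63), a tetraspanin of lysosomes, Btg2 (-2.51), an antiproliferative early gene, and Igkv6-23 (-2.41), an immunoglobulin light chain segment, were called higher in young dwarf livers and not called in old ones. Foxa3 (-1.44), a liver transcription factor, was called lower at 22 and higher at 6 months. Of the 31 genes 21 lost this call under at least 1 alternative.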

How the results depend on the processing

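With all arrays 99 probe sets were higher, 113 lower and 158 called for the difference between ages. Array weights gave 215 higher and 227 lower. The difference between ages was called for 69 with no filter on low signals and for 64 with no intensity trend. Leaving out 1 array of 22 months at a time gave 49 to 91 higher, 78 to 93 lower and 48 to 151 for the difference between ages. The arrays of 6 months were all kept. Without dwarf animal 3 the counts were 49, 78 and 48, and without dwarf animal 4 there were 63 higher. The difference between ages was called for 85 without wild type animal 1, 57 without wild type animal 24, 88 without dwarf animal 4 and 69 without dwarf animal 8. The counts under the other alternatives stayed within 1.5 times: the 6 arrays alone gave 89 higher and 141 lower, with 166 of the 212 calls kept, and no filter gave 76 and 98, with 148 kept. The share of calls that were higher was 46.7%, 51.5% with quantile normalization, 44.7% with a common median, 38.7% with the 6 arrays alone and 38.6% without dwarf animal 3. Scaling moved the median of all probe sets to at most 0.0151. Of 82 named genes called at 22 months 48 kept the call under every alternative run, 34 lost it under at least 1 (29 of them without 1 array), and 14 uncalled ones gained a call. Of 31 named genes called for the difference between ages 10 kept it under every alternative and 21 lost it under at least 1. No named value changed sign among those called. No paired analysis was possible because the animal numbers differ between the groups and pair no mice. Signals near the floor of 54.9, such as those of Egfr, Csrp3 and Dio1 in dwarf livers, give only a bound.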

Other observations

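Several large differences were in genes better known from other tissues. Zap70, a kinase of T cells, read 1049.4, 1298.2 and 1260.6 in wild type and 64.6, 117.2 and 55.0 in dwarf livers (-4.0 ± 0.31, SE, adjusted p = 1.13e-06). Its set may bind related transcripts, 2 of its 3 tested sets were called lower and the other differed by 0.39, and the remaining tested T and NK cell markers were not called. Dct, an enzyme of melanin synthesis, read 706.0, 1627.8 and 1090.4 against 92.3, 49.4 and 186.6 (-3.46 ± 0.47), and it was the 1 tested melanocyte marker of 4 on the array. Csrp3, a muscle LIM protein, read 226.7, 510.7 and 253.0 in wild type livers and was under the floor in every dwarf liver, at least 5.61-fold lower, while 0 of 3 tested skeletal muscle markers were called by limma (0 at an unadjusted p under 0.05). Cela1, an elastase of the pancreas, read 1553.6 to 2231.1 against 382.2 to 917.3 (-1.67 ± 0.27), the 1 called of 4 tested pancreas markers. These 4 genes were lower at 6 months too, by -3.49, -3.51, -2.19 and -2.03.

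Tff3, a trefoil peptide of mucus-making epithelium, read 6541.8, 3963.0 and 2786.0 in old wild type and 614.1, 281.2 and 1368.6 in old dwarf livers (-2.75 ± 0.59), and 71.2 ± 23.7 (SD, n = 4) in young wild type livers. It lost its call at 22 months without wild type animal 1 or 2 or dwarf animal 3 or 4 (adjusted p 0.0514 to 0.0956), and with no filter on low signals. Phlda1 was 5.76-fold lower (-2.53 ± 0.45), and Cars, a cysteine tRNA synthetase, 4.57-fold lower (-2.19 ± 0.53); Cars was not called without any array but that of dwarf animal 8 (0.0704 to 0.148) or with no filter. Pcp4l1 read 1750.3, 1506.5 and 464.9 in dwarf and 108.7, 36.2 and 47.3 in wild type livers (3.96 ± 0.49), Lgals1, a galectin, 2894.2 to 3736.1 against 585.6 to 1102.1 (2.09 ± 0.27), and Anxa8 535.4 to 624.0 against 60.0 to 86.1 (2.92 ± 0.42). Wild type animals 2 and 24 were under the floor for Pcp4l1, as were dwarf animals 3 and 4 for Cars, so the size of these differences depends on the floor.

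Several other gene lists had no calls by limma, beside a median difference of 0.00255 over all genes. For oxidative phosphorylation 0 of 37 were called (2 at an unadjusted p under 0.05; median 0.15), for the proteasome 0 of 30 (0; -0.02), for NRF2 targets and antioxidant enzymes 0 of 25 (6; 0.15), for collagens and matrix 0 of 24 (3; 0.10), for cell cycle 0 of 16 (4; 0.18), for cytosolic heat shock proteins 0 of 16 (3; -0.20), for circadian genes 0 of 13 (0; 0.26) and for immediate early genes 0 of 13 (2; -0.08). In the NRF2 list 2 were called higher in a fit of the 6 arrays alone and with array weights. The 7 called glutathione transferases stand in their own list and not in this one, so its count does not cover them. Sod1, Sod2 and catalase (Cat) differed by 0.09 ± 0.41, 0.48 ± 0.22 and 0.13 ± 0.17. The metallothioneins Mt1 and Mt2, zinc-binding stress proteins, had dwarf values above all wild type values, at 1.45 ± 0.48 and 1.72 ± 0.46, and were not called (adjusted p = 0.145 and 0.0593). Their list of metallothioneins and iron handling had 0 of 15 called by limma (5 at an unadjusted p under 0.05), and 2 called higher with quantile normalization or the stricter filter and 3 with array weights. A p that misses the threshold does not show that the levels are equal.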
